A study of Mus musculus with 16 samples.

Results

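Mammary luminal transcription factors are the DNA-binding proteins that set up and maintain the secretory and hormone-responsive cells lining the milk ducts. The 8 genes described here were Gata3, Ehf, Elf3, Elf5, Spdef, Esr1, Pgr and Tfap2c, taken by name from the 21631 protein-coding genes of the autosomes and the X chromosome. For each gene, the H3K27me3 peaks that overlapped the gene body, extended by 2 kb to each side (mouse build mm10), were collected in 8 libraries. The covered share is the percentage of this extended gene body that lay under peaks.

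The cells were CCN6KOT cells, mouse breast tumour cells from a model that lacks CCN6, a secreted protein of the extracellular matrix. The labels give their condition as spindle metaplastic, a form of breast cancer in which epithelial cells take on a spindle, connective tissue-like shape. In the dnTCF4 group the cells had received a lentivirus carrying a dominant negative form of TCF4, a factor through which beta-catenin acts on its target genes, and in the control group a control lentivirus, PPGS in the labels. Both groups carried the CCN6 knockout, came from the same named cell line and were selected with puromycin, and each had 4 H3K27me3 libraries. The study asked how EZH2 shapes the epigenome of these tumours when beta-catenin signalling is blocked. Whether the libraries of a group derive from separate cultures is not stated in the labels, and p-values reflect library-to-library spread that may be technical.

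H3K27me3 is the repressive histone mark written by Polycomb repressive complex 2, whose catalytic subunit is EZH2. The mark lies over silenced genes of other cell fates, often across broad domains. Among the luminal factors, GATA3 keeps luminal cells differentiated, the ETS factors EHF, ELF3, ELF5 and SPDEF act in epithelial and secretory cells, and the receptors ESR1 and PGR carry the oestrogen and progesterone response.

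Of the 8 luminal factor genes, 6 had a peak in at least 1 library (75%), against 21.4% of all protein-coding genes, and Elf3 and Pgr had none in any. In the dnTCF4 libraries 1 to 4, 6, 0, 3 and 1 of the 8 genes had a peak, beside 13.7%, 0.254%, 5.13% and 2.41% of all genes. In the control libraries 1 to 4, 0, 1, 5 and 4 of the 8 had one, beside 0.675%, 1.06%, 20.1% and 12.5% of all genes. The mean number of luminal factor genes with a peak differed by 0 between the groups. Within each group the counts followed the length of the peak lists, which held 21492, 191, 4885 and 1838 peaks with dnTCF4 and 426, 738, 54070 and 22745 peaks in control. These lists hold no read counts, so the sequencing depth behind a library without a peak is unknown. A gene without a peak is one at which none was called, not one shown to lack the mark. The extended luminal factor genes were longer (median 38.9 kb) than all extended genes (21.3 kb), and the part of length in the counts was not tested.

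**Figure D1:**
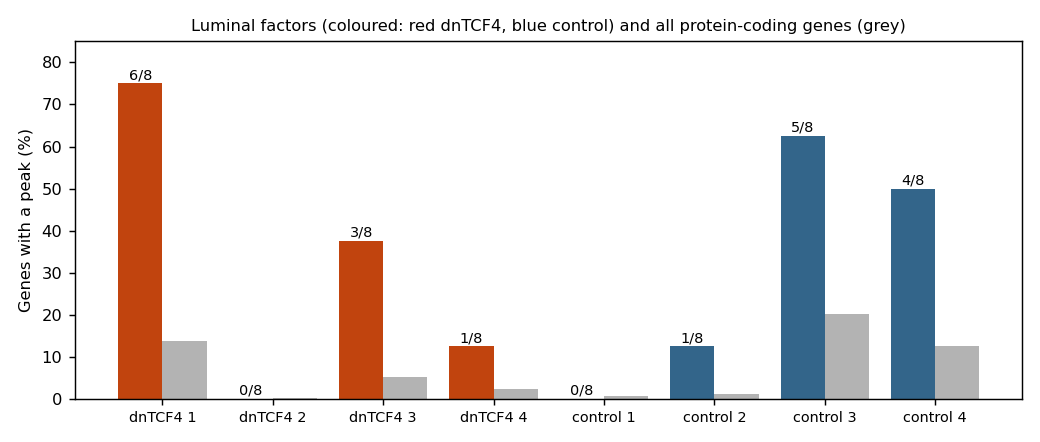
Percentage of genes with at least 1 H3K27me3 peak in each library (y axis) for the 8 luminal factor genes (red in dnTCF4, blue in control, counts above the bars) and for all 21631 protein-coding genes (grey). The luminal factor bars reach 6 of 8 in dnTCF4 1 and 5 of 8 in control 3, and 0 of 8 in dnTCF4 2 and control 1.

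No luminal factor gene passed the test between the groups. Group means of the covered share were compared by exact permutation, two-sided, with Benjamini-Hochberg adjustment across the 4626 genes that had a peak in any library. With 4 libraries a group the smallest exact p is 0.0286, and every adjusted p equalled 1. After adjustment a gene could be called only if a large share of the 4626 genes reached this smallest p together. A gene without coverage in dnTCF4 2 and control 1 cannot reach it, since exchanging these libraries leaves the difference unchanged. Only 55 genes had a peak in dnTCF4 2 and 146 in control 1, none of them a luminal factor. With these lists no gene could be called. That 0 genes were called therefore does not show that the groups are alike. At an unadjusted p under 0.05, 0 genes were higher and 1 gene was lower in dnTCF4 (0.0216%), none of them a luminal factor, and after adjustment 0 genes were called (0%). Fisher's exact test of libraries with and without a peak was limited in the same way by dnTCF4 2 and control 1. A p under 0.05 there needs a peak in every library of a group and in none of the other. This test called 0 genes, with 0 at an unadjusted p under 0.05, and its result adds no further support. The median difference, dnTCF4 minus control, was -1.06 percentage points over the 8 luminal factor genes, Elf3 and Pgr included. It was -1.03 over the 4626 genes tested. These medians are not like for like, since Elf3 and Pgr, without a peak, count only in the first. At the luminal factors with a peak the differences were -8.70 (Ehf), -5.22 (Elf5), -4.62 (Gata3), -1.40 (Tfap2c), -0.731 (Spdef) and 0.0449 (Esr1). Over all 21631 genes the median difference was 0, and 17005 of these had no peak in any library.

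**Figure D2:**
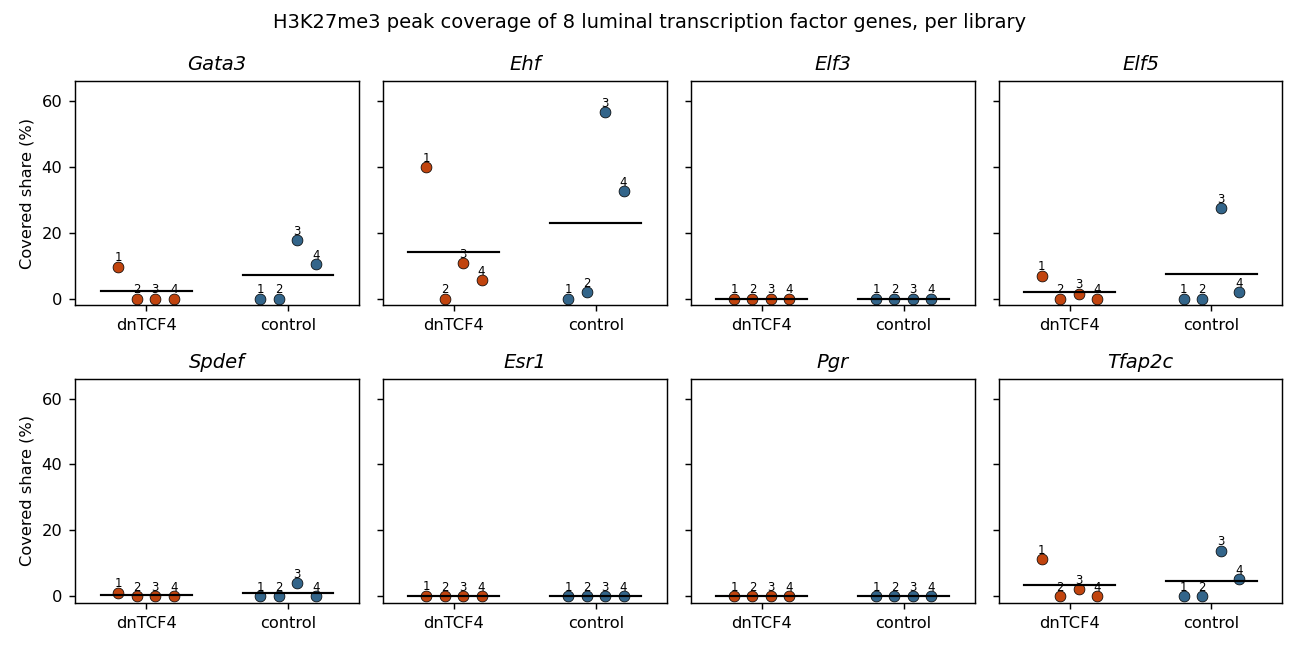
Covered share of each of the 8 extended luminal factor genes (y axis, percent) in the 4 dnTCF4 libraries (red) and the 4 control libraries (blue). Points carry the library number, horizontal lines are group means, and at Ehf the points span 0 to 39.9% in dnTCF4 and 0 to 56.6% in control.

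Ehf, an ETS factor of epithelial cells, was the most heavily covered of the 8 genes. It lies on chromosome 2 (chr2:103263431-103303275) and held 40 of the 81 peaks found at the luminal factor genes. Its covered share was 39.9%, 0%, 10.8% and 5.72% in dnTCF4 libraries 1 to 4, against 0%, 2.03%, 56.6% and 32.6% in control libraries 1 to 4. The groups overlapped: dnTCF4 1 lay above 3 of the 4 control libraries, and each group had 1 library without a peak. The means were 14.1% ± 17.8 in dnTCF4 and 22.8% ± 27.03 in control (SD, n = 4 each). The difference of -8.70 percentage points was smaller than either SD (exact permutation p = 0.686). Without control 3 it turned to 2.58 percentage points. In bulk chromatin, fewer marked cells and less of the mark per cell cannot be told apart.

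In each of the 6 libraries with a peak there, Ehf stood near the top of all genes in covered share. Its rank among the 21631 genes was 67 in dnTCF4 1, 108 in dnTCF4 3 and 42 in dnTCF4 4, against 59 in control 2, 92 in control 3 and 84 in control 4. Genes with any peak numbered 2962, 1109 and 521 in these dnTCF4 libraries, against 229, 4344 and 2696 in these control libraries. Most genes had no peak, so in short lists such as control 2 a rank among all genes says little. The covered share of Ehf was 39.5, 50.4 and 101 times the mean over all genes in dnTCF4 1, 3 and 4, against 82.3, 23.5 and 38.4 times in control 2, 3 and 4. In control 2 this was a share of 2.03% beside a mean of 0.0247%. Peaks at Ehf were thus present both in a list of 738 peaks and in one of 54070.

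Coverage at Ehf was denser over its higher-coordinate end than over the rest of the gene in each of the 6 libraries. The last 10 kb of the gene body was covered by 84.4%, 28.2% and 25.1% in dnTCF4 1, 3 and 4, against 8.91%, 92.2% and 77.1% in control 2, 3 and 4. The rest of the gene body was covered by 25.3%, 3.12% and 0% in the same dnTCF4 libraries, against 0%, 41.7% and 17.8% in the same control libraries. That end held 48.2%, 59.6% and 100% of the covered bases at Ehf in dnTCF4 1, 3 and 4, against 100%, 37.1% and 54.0% in control 2, 3 and 4. In dnTCF4 1 and control 3, which had the most coverage, most covered bases therefore lay elsewhere. Peaks of all 6 libraries fell into 1 merged region, chr2:103294073-103307870, which begins inside the gene and ends beyond it. A stretch of 480 bases within it, chr2:103296592-103297071, lay under a peak in all 6.

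The widest Ehf peak measured 8.32 kb in dnTCF4 1, 1.12 kb in dnTCF4 3 and 1.21 kb in dnTCF4 4, against 0.482 kb in control 2, 13.8 kb in control 3 and 7.36 kb in control 4. By width it was peak number 19 of 21492 in dnTCF4 1, against number 23 of 54070 in control 3 and number 24 of 22745 in control 4. It was only number 551 of 4885 in dnTCF4 3 and 81 of 1838 in dnTCF4 4, against 212 of 738 in control 2. The short lists covered part of what the long lists covered. All peak bases of dnTCF4 4 at Ehf also lay under peaks of dnTCF4 1, control 3 and control 4 (100% in each), and the same held for control 2. Of the Ehf bases covered in dnTCF4 1, 92.3% were also covered in control 3, and of those in control 4, 73.4% were also covered in dnTCF4 1. All 7 merged regions at Ehf held peaks of both groups.

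Elf5, the ETS factor that directs luminal progenitors to the milk-secreting alveolar fate, is the next protein-coding gene, 108.8 kb further along chromosome 2 (chr2:103412098-103450989, plus strand). Its covered share was 6.99%, 0%, 1.52% and 0% in dnTCF4 libraries 1 to 4, against 0%, 0%, 27.4% and 1.94% in control libraries 1 to 4. Control 3 was high and every other library lay at or under 6.99%. The difference of -5.22 percentage points (exact permutation p = 0.714) turned to 1.48 without control 3. Of its 10 merged regions, 3 held peaks of both groups and 7 peaks of control 3 or 4 alone, and control peaks alone made up 64.7% of the 24732 regions at all genes. A region near the higher-coordinate end, chr2:103440876-103442827, held peaks of dnTCF4 1 and 3 and of control 3 and 4.

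Elf5 has 2 start sites in RefSeq. Its peaks came close to the second, at position 103424068, without reaching it. The nearest peak ended 0.438 kb upstream in dnTCF4 1 (1997 bp wide), against 0.901 kb upstream in control 3 (1947 bp). In dnTCF4 3 the nearest peak lay 2.62 kb downstream of it, and in control 4, 5.28 kb upstream. The 250 bases before this start are shown because they lie between these peaks (chr2:103423818-103424067, plus strand, GRCm38.p6, from RefSeq). CpG dinucleotides (CG, which reads the same on both strands) are in capitals.
Elf5 second promoter: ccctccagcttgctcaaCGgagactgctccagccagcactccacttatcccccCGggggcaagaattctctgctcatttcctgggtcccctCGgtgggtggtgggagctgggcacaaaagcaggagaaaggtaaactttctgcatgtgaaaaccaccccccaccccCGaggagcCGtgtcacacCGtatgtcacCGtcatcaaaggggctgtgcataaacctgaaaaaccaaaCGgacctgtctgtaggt
It held 8 CpGs, and the median over 21045 RefSeq promoters was 10. At least 1 CpG was found in 93.6% of those promoters.

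Peaks also lay on both sides of Ehf and were sparse beyond Elf5. The interval between Ehf and Elf5 was covered by 10.3%, 0%, 2.18% and 0% in dnTCF4 libraries 1 to 4, against 0%, 0%, 30.3% and 11.6% in control libraries 1 to 4. The 100 kb below Ehf was covered by 14.6%, 0%, 3.20% and 1.78% in dnTCF4, against 0%, 0%, 35.3% and 17.5% in control. The 100 kb above Elf5 was covered by 1.16%, 0%, 0% and 0% in dnTCF4, against 0%, 0%, 5.42% and 1.42% in control. Covered shares thus dropped past Elf5 in each of the libraries with peaks in the interval. The next protein-coding genes outside the pair were nearly bare: Apip, below Ehf, had no peak in any library, and Cat, above Elf5, had 1.45% in control 3 and 0% in the others.

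**Figure D3:**
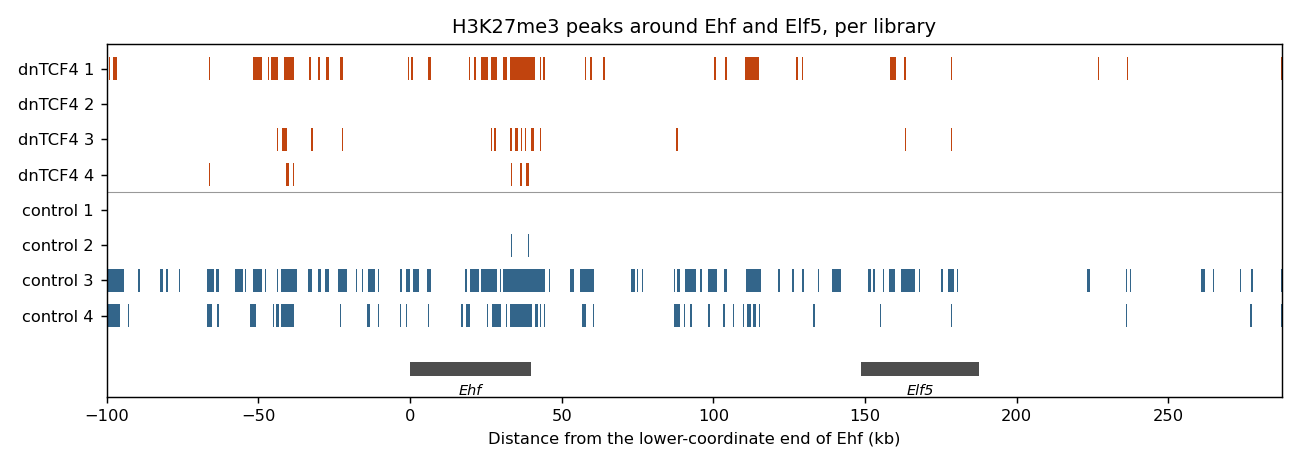
H3K27me3 peaks in each library (rows; dnTCF4 red, control blue) against distance in kb from the lower-coordinate end of Ehf (x axis), with the gene bodies of Ehf and Elf5 as dark bars. Peaks of 6 libraries stack over the right end of Ehf, where the widest measured 13.8 kb in control 3, and thin out beyond Elf5.

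Spdef, an ETS factor of secretory epithelium (chr17:27714446-27731003, minus strand), carried little coverage. Its covered share was 1.10% in dnTCF4 1 and 0% in the other 3 dnTCF4 libraries, against 4.03% in control 3 and 0% in the other 3 control libraries. Each group thus had 1 library with peaks (difference -0.731 percentage points, exact permutation p = 1, and 0.276 without control 3). Both of those libraries had a peak in the region chr17:27715506-27716126, at 12.8 to 13.4 kb downstream of the listed start. Control 3 had a second peak of 244 bp, 0.979 kb downstream of the start, with 4.097-fold enrichment. By fold it was number 296 of 54070 in that list, higher than 99.5% of the peaks, although it was narrower than the list's median of 595 bp. The neighbour Pacsin1, 3.33 kb away, was covered by 5.55%, 0%, 1.31% and 0% in dnTCF4, against 0%, 0%, 9.10% and 2.15% in control.

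Elf3, an ETS factor of epithelial barriers (chr1:135253574-135258472, minus strand), had no peak in any library. Its nearest peaks lay 20.9 kb upstream of the start in dnTCF4 1, against 19.9 kb in control 3 and 19.6 kb in control 4. All 3 of these peaks lay in Rnpep, the adjoining gene 4.23 kb away. Rnpep was covered by 1.44% in dnTCF4 1 and 0% in the other dnTCF4 libraries, against 0%, 0%, 10.9% and 6.75% in control libraries 1 to 4.

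Gata3 (chr2:9857078-9887953, minus strand) had peaks in 3 of the 8 libraries. Its covered share was 9.73%, 0%, 0% and 0% in dnTCF4 libraries 1 to 4, against 0%, 0%, 17.8% and 10.4% in control libraries 1 to 4. The 3 libraries with peaks were those with the longest lists, 1 in dnTCF4 and 2 in control. The means were 2.43% ± 4.87 in dnTCF4 and 7.05% ± 8.68 in control (SD, n = 4 each). The difference of -4.62 percentage points did not pass the test (exact permutation p = 0.429).

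The 9 Gata3 peaks formed 3 merged regions, and each region held 1 peak from dnTCF4 1, control 3 and control 4. Relative to the listed start at position 9878600, the regions lay 2.05 to 3.397 kb downstream (chr2:9875203-9876546), 4.27 to 6.19 kb downstream (chr2:9872413-9874335) and 6.89 to 10.6 kb upstream (chr2:9885488-9889153). The last of them spans the upper end of the annotated gene. A peak of 159 bp in dnTCF4 3 began 12.0 kb upstream of the start, outside the extended gene. Every Gata3 base covered in control 4 was also covered in control 3 (100%), and 78.4% of those covered in dnTCF4 1 were. In dnTCF4 1 the highest fold enrichment, 4.44, was in the nearest downstream region and exceeded that of 97.5% of the library's peaks.

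The listed start of Gata3 lay in the gap between these regions. The upper end of the annotated gene, its upstream end on the minus strand, lay under the control 3 peak. The promoter at the listed start is shown because peaks flanked it without covering it in all 3 libraries (chr2:9878601-9878850, minus strand, GRCm38.p6, from RefSeq, CpGs in capitals).
Gata3 promoter: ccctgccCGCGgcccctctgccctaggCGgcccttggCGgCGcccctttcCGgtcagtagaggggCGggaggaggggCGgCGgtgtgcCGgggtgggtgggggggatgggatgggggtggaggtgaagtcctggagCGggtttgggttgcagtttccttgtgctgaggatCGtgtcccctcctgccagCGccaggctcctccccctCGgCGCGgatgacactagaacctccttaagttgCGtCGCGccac
It held 19 CpGs in 250 bases, more than 73.6% of RefSeq promoters, and 70% of its bases were G or C.

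Tfap2c, which encodes the AP-2 gamma factor of luminal cells (chr2:172545678-172558622), had a covered share of 11.2%, 0%, 2.27% and 0% in dnTCF4 libraries 1 to 4, against 0%, 0%, 13.8% and 5.25% in control libraries 1 to 4. The groups overlapped, with 2 libraries at 0% in each (difference -1.40 percentage points, exact permutation p = 0.714, and 1.62 without control 3). The region chr2:172552092-172553676, inside the gene, held peaks of dnTCF4 1, dnTCF4 3, control 3 and control 4. The region chr2:172548216-172548687 held peaks of dnTCF4 1, dnTCF4 3 and control 3. There the dnTCF4 1 peak had a fold of 4.86, number 202 of the 21492 in its list. Folds are the peak caller's own values in the authors' files. Their median was lower in the 3 longest lists than in the 5 shorter ones, so a fold is read here only within its own list.

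**Figure D4:**
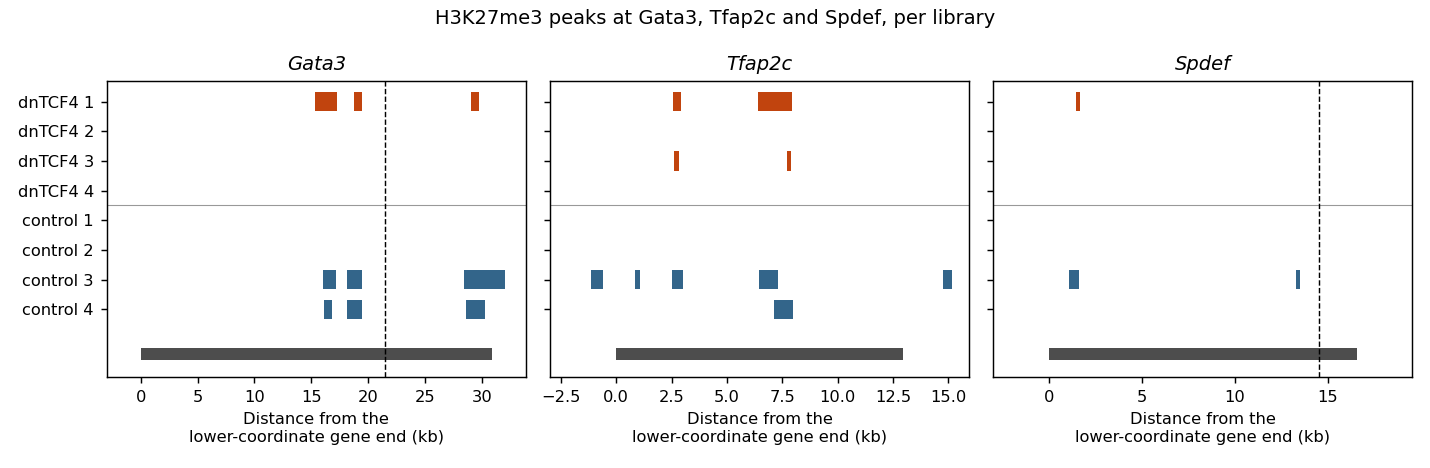
H3K27me3 peaks at Gata3, Tfap2c and Spdef in each library (rows; dnTCF4 red, control blue) against distance in kb from the lower-coordinate gene end (x axis), with gene bodies as dark bars and the RefSeq start sites of Gata3 and Spdef as dashed lines. The peaks of dnTCF4 1, control 3 and control 4 at Gata3 fall into 3 regions with the listed start site between them.

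The hormone receptor genes Esr1 and Pgr had 1 peak between them, where 17005 of the 21631 protein-coding genes had no peak in any library. Esr1, the oestrogen receptor alpha gene (chr10:4611989-5005633, plus strand), is the longest of the 8 genes, at 394 kb. It had 1 peak of 714 bp in dnTCF4 1, chr10:4710976-4711689, and none in the other 7 libraries. This gave a covered share of 0.180% in dnTCF4 1, 0% in the other 3 dnTCF4 libraries and 0% in all 4 control libraries (exact permutation p = 1). With 3.16-fold enrichment, the peak exceeded only 5.75% of the peaks in its list. It lay 0.818 kb downstream of the second of 2 listed starts, at position 4710158, and 99.0 kb from the first. The 250 bases before that second start are shown because this peak is the only one at a hormone receptor gene among the 8 (chr10:4709908-4710157, plus strand, GRCm38.p6, from RefSeq, CpGs in capitals).
Esr1 second promoter: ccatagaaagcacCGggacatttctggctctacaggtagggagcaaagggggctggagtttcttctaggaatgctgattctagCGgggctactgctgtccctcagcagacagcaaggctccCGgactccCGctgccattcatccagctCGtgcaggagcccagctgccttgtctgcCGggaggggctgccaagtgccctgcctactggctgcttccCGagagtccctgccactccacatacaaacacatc
It held 7 CpGs, more than 40.8% of RefSeq promoters.

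Pgr, the progesterone receptor gene (chr9:8898900-8968611, plus strand), had no peak in any library, although at 69.7 kb it is the second longest of the 8. The nearest peaks on that chromosome lay 669, 706, 669 and 683 kb upstream of its start in dnTCF4 libraries 1 to 4, against 704 and 699 kb upstream in control 1 and 2, 508 kb downstream in control 3 and 680 kb upstream in control 4. The upstream peaks had folds below the median of their own list in each of these 7 libraries, for example 1.578 where the list had 3.495 in dnTCF4 1, against 1.436 where the list had 3.387 in control 4. The genes adjoining Pgr, Trpc6 and Arhgap42, also had none in any library.

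RefSeq promoters were matched for 6 of the 8 genes, Gata3, Elf3, Elf5, Spdef, Esr1 and Pgr, with 8 promoters in all, and those of Ehf and Tfap2c were not analysed here. Over the 300 bases from 250 before to 50 after each start, 0 of these 8 promoters overlapped a peak in any library. Among all 21045 promoters, 0.718%, 0.0143%, 0.147% and 0.0238% did in dnTCF4 libraries 1 to 4, against 0.0285%, 0.0238%, 1.67% and 0.551% in control libraries 1 to 4. Even among promoters of genes with a peak, only 5.27% in dnTCF4 1 and 8.35% in control 3 overlapped one, so 0 of 8 is near the share of all promoters. The count leaves out Ehf, the most heavily covered gene. The higher-coordinate end of the Ehf gene body lay under a peak in dnTCF4 1, control 3 and control 4. Whether that end holds its start was not analysed here.

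Pooled over the luminal factor genes, peaks had median folds near those of their libraries' lists and larger median widths. Their median fold was 3.53, 4.00 and 4.56 in dnTCF4 1, 3 and 4, where the whole lists had 3.495, 4.048 and 4.476. In control 2, 3 and 4 it was 4.60, 3.10 and 3.42, where the whole lists had 4.59, 3.01 and 3.39. Their median width was 750, 423 and 526.5 bp in the same dnTCF4 libraries, where the lists had 485, 400 and 307 bp. In the same control libraries it was 445.5, 820 and 600 bp, where the lists had 320.5, 595 and 471 bp. Over all libraries the median width was 1302 bp at Gata3 and 853.5 bp at Ehf, but 479 bp at Elf5, 448.5 bp at Tfap2c and 244 bp at Spdef. Ehf supplied 40 of the 81 peaks, and all of those in dnTCF4 4 and control 2. Of the 81 peaks, 36 came from dnTCF4 and 45 from control libraries, and they merged into 28 regions. Of these, 16 (57.1%) held peaks of both groups, 1 (3.57%, at Esr1) dnTCF4 peaks alone and 11 (39.3%) control peaks alone, all 11 from control 3 or 4. Of the 24732 regions merged in the same way at any protein-coding gene, 28.7% held peaks of both groups, 6.66% dnTCF4 peaks alone and 64.7% control peaks alone.

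Chromosome 2 carried 77 of the 81 peaks and 4 of the 8 genes, Gata3, Ehf, Elf5 and Tfap2c. Genes of this chromosome had peaks more often than the average gene in every library. The share of its 1782 genes with a peak was 21.4%, 0.673%, 13.9% and 6.12% in dnTCF4 libraries 1 to 4, against 1.12%, 1.85%, 24.7% and 18.7% in control libraries 1 to 4. The part of the chromosome in the luminal factor counts was not tested.

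Other genes of the luminal programmes gave a mixed picture, and none of the listed genes passed the test. The counts below stand beside 21.4% of all protein-coding genes with a peak in some library. In the hormone-sensing programme 4 of 12 genes had a peak in some library, namely Prlr, Greb1, Cited1 and Myb, and Foxa1 and Xbp1 were among the 8 without. Cited1, a transcriptional co-activator of hormone-responsive cells, was covered by 10.8% in dnTCF4 1 and 0% in the other dnTCF4 libraries, against 0%, 0%, 20.9% and 13.7% in control libraries 1 to 4. In the progenitor and alveolar programme 5 of 12 had a peak. One of them, the milk protein gene Lalba, exceeded every luminal factor in each library but control 2, with 100%, 2.66%, 39.1% and 39.5% in dnTCF4 libraries 1 to 4, against 14.6%, 0%, 100% and 58.5% in control libraries 1 to 4. Among luminal keratin and surface genes 4 of 10 had a peak, led by the adhesion gene Epcam with 37.7%, 2.97%, 16.6% and 16.9% in dnTCF4, against 1.14%, 1.22%, 44.3% and 23.8% in control. Krt8 and Krt18, the keratins of simple epithelium, had none.

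Basal and mesenchymal transcription factors had a peak in 2 of 12 cases (16.7%), at Sox10 and Prrx1, beside 21.4% of all genes. Of the housekeeping genes, 0 of 8 had one. Their extended genes were short, with a median of 8.74 kb against 38.9 kb for the luminal factors. The median was 12.5 kb for the mesenchymal markers below. The part of length in these counts was not tested. By marker list, 3 of 5 luminal markers, 3 of 5 basal markers and 0 of 5 mesenchymal markers had a peak, and peaks of this mark do not measure expression. Among relatives of the 8 genes, 4 of 5 other GATA genes and 3 of 18 other ETS genes (16.7%) had a peak. So did 3 of 7 steroid and oestrogen-related receptor genes and 1 of 4 other AP-2 genes (25%), again beside 21.4% of all genes. Gata5, Gata4 and Gata1 had peaks in the same libraries as Gata3, those with the longest lists. Listed genes of other families, such as Cited1 and Cdh1, had peaks in the same libraries. Gata5 had 6.23% in dnTCF4 1 against 15.4% and 3.34% in control 3 and 4. Gata4 had 1.90% in dnTCF4 1 against 15.0% and 1.86% in control 3 and 4. Gata1 had 2.55% in dnTCF4 1 against 4.79% and 0.906% in control 3 and 4. The ETS genes Ets1 and Ets2 had no peak in any library.

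The genes whose covered shares over the 8 libraries were most like those of a luminal factor lay on other chromosomes by construction. The closest to Gata3 was Otop3, at a Euclidean distance of 1.599 percentage points. The closest to Ehf was Mei1, at 9.35, with 41.2%, 0%, 16.7% and 2.09% in dnTCF4 libraries 1 to 4, against 0.797%, 0.766%, 50.8% and 31.5% in control libraries 1 to 4. Oas1d was closest to Elf5, at 2.02, and Nfam1 to Tfap2c, at 1.41.

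When the 5 libraries with at least 1000 peaks were each cut to their 1838 most significant peaks, Ehf was covered by 18.98%, 4.69% and 5.72% in dnTCF4 1, 3 and 4, against 0% and 1.36% in control 3 and 4. At this equal length all 3 dnTCF4 libraries lay above both control libraries. This setting was chosen after the data were seen, and with these 5 libraries the smallest exact p is 0.1. The difference of 9.11 percentage points had an exact permutation p of 0.3 (adjusted p = 0.84). It runs opposite to the difference over the full lists.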

How the data were processed

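H3K27me3 was profiled by ChIPmentation, in which a transposase adds sequencing adapters to chromatin still bound to the antibody. Data of the 8 IgG libraries were not used here. Read trimming tools (cutadapt, Trim Galore), the aligner Bowtie2 2.3.4.1, the peak caller MACS2 2.1.2, and the utilities bedtools 2.28.0, SAMtools 1.2 and Picard 2.20.2 are named with build mm10, per the submitters' processing notes. Their options, and any role of IgG in peak calling, are not given in the sources used. Each library has 1 deposited peak list without read counts. For each peak the authors deposited a fold enrichment (a ratio), a −log10 p and a −log10 q. The deposited score equalled the truncated product of 10 and −log10 q in all but 7 of 106385 peaks. The lowest −log10 q was 1.01, so peaks weaker than this are not in the lists.

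Gene bodies, start sites and promoters came from RefSeq (GRCm38.p6, the same assembly as mm10), extended by 2 kb, and overlaps of at least 1 base counted. Covered shares were computed with Python 3.11.15, numpy 2.4.6, pandas 2.3.3 and scipy 1.17.1. They were tested by exact permutation of the 70 assignments of 8 libraries to 2 groups of 4, with Benjamini-Hochberg adjustment over 4626 genes. The genes, the comparison lists and the tests were chosen with earlier results of these data known. All 8 luminal factor genes are named. From each comparison list the rule allowed up to 4 genes with a peak in the most libraries and up to 2 without a peak. For each luminal factor with a peak in at least 3 libraries, up to 3 genes on other chromosomes with the smallest distance were identified, and the closest is named. Neighbours are the nearest protein-coding gene on each side.

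Deviations of same-numbered libraries from their group means had correlations of -0.774, 0.765, -0.248 and -0.502 for numbers 1 to 4. Libraries of unlike number reached similar values, such as 0.760 for dnTCF4 2 with control 1 and 0.696 for dnTCF4 1 with control 3. These correlations cannot decide whether the numbers mark pairs. In the main test the numbers were not used as pairs. Alternatives varied the gene window, the peak threshold, the list length, the scaling, the overlap, the test, the pairing and the libraries used.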

Additional observations from a re-analysis of the deposited data

Results flagged for a closer look

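Covered shares were examined in 11 sets of 4 libraries with any coverage (1 luminal factor gene in 1 group), and so were the 2 sets of counts of luminal factor genes with a peak. In 5 of these 13 sets, all of covered shares, 1 library stood apart from the other 3 by Dixon's gap test, which sets the gap to the nearest library against the range. Chance gives about 1 in 20 for continuous values, a rate that does not apply here: in 4 of the 5 sets the other 3 libraries were all at 0%, where the rule is met by any value above 0, and the sets share their libraries. In dnTCF4 this was library 1, with 9.73% of Gata3, 1.10% of Spdef and 0.180% of Esr1 covered, and 0% in the other 3 dnTCF4 libraries in each case. In control it was library 3, with 27.4% of Elf5 covered, where the next highest control library had 1.94%, and with 4.03% of Spdef covered and 0% in the other 3. These libraries have the longest peak list of their group. The part of list length in these values was not tested.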

How the results depend on the processing

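Over the 21 alternatives run, 0 genes and 0 luminal factor genes were called, and no luminal factor had an unadjusted p under 0.2 or an adjusted p under 0.519. In the alternatives limited to libraries with at least 1000 peaks the smallest exact p is 0.1, so no gene could be called. With the replicate block the smallest exact p is 0.125, so no gene could be called there either. In the remaining alternatives a call needed many genes at the smallest p together. The absence of calls therefore says little about differences between the groups. Over all genes the lowest adjusted p was 0.395, and between 0 and 16 genes had an unadjusted p under 0.05. The directions of the differences in covered share were not stable. In percentage points, dnTCF4 minus control, peaks with a −log10 q of at least 2 gave 0.537 for Elf5 and 0.174 for Tfap2c. Cutting the libraries with at least 1000 peaks to 1838 peaks each, an alternative added after the data were seen, gave 0.690 for Gata3, 9.11 for Ehf, 1.55 for Elf5 and 0.708 for Tfap2c. Dividing by the library's mean covered share gave differences between ratios of 11.5 for Ehf, 0.0733 for Elf5 and 2.44 for Tfap2c. Leaving out 1 library at a time gave ranges of -17.3 to 2.58 for Ehf, -7.67 to 1.48 for Elf5, -1.07 to 0.276 for Spdef and -4.01 to 1.62 for Tfap2c, each positive value being the one without control 3. The cause was not tested. Gata3 stayed between -7.05 and -1.05 in that series.

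With every list cut to the length of the shortest, 191 peaks, 0 luminal factor genes had a peak in any library, and no covered share could be given. Esr1 rests on 1 peak in dnTCF4 1 and had no value without that library, and Gata3 had none within 2 kb of its listed start. With a replicate block on the library numbers, which share only a number, the sign-flip test cannot go below an exact p of 0.125 and called 0 genes. The paired difference at Ehf was -8.70 percentage points (exact p = 0.625). Depth is unknown in all libraries, and short lists limit what an absent peak shows.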
